A study of Homo sapiens with 4 samples.

Results

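Annexins are proteins that bind acidic phospholipids when calcium is present. They share a core of similar repeats that holds the calcium sites and differ in a head at the amino terminus, where partner proteins such as S100 proteins bind. They act in membrane traffic, in sealing of damaged plasma membrane and in cell surface signalling. Here 8 human annexin genes, ANXA1 to ANXA7 and ANXA11, were followed in a table of 60595 genes. Rows were picked by gene symbol, with no threshold on measured values, though earlier results of these data were known when the family was chosen. RNA sequencing had measured expression in A375, an established melanoma cell line grown in DMEM with FBS, whose genotype the submitters give as wild type. The cells were exposed either to Paroxetine Hydrochloride, a serotonin reuptake inhibitor (PH in the labels), or to DMSO, the solvent control, with 2 libraries in each group and the same genotype throughout. The sources used here give neither the dose nor how long the cells were exposed.

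Values are FPKM, fragments scaled by transcript length and by mapped fragments, which can be compared between genes because of the scaling for length. The table gives no read numbers, so the depth behind each value is unknown. FPKM values summed to 606197 to 655607 per library, and mitochondrially encoded genes held 12.9% to 13.1% of them in the DMSO libraries and 10.9% to 12.4% in the paroxetine libraries. Of 12 markers of the melanocyte lineage 7 reached 1 FPKM in at least 2 libraries. By the test described below 2 of these were called higher, SOX10 (192.5 and 181 FPKM with DMSO, 275 and 271 FPKM with paroxetine) and CSPG4 (59.0 and 59.2, then 73.8 and 71.8 FPKM). Another 2 were called lower, MIA (321 and 264, then 139 and 152 FPKM) and S100B (5.09 and 6.66, then 1.89 and 2.70 FPKM). Over all genes tested 18.1% were called higher and 20.5% lower, and nothing is read from the share of the 7 markers. PMEL, MLANA, TYR, DCT and TYRP1, which mark pigment cells, did not reach 1 FPKM in at least 2 libraries, and TYR was listed at 0 in all 4 libraries. Of 18 markers of other cell types 5 passed that filter. CD68 and PDGFRB were called higher, KRT14 was called lower, and LUM and LYZ were not called. The leukocyte markers summed to 24.1 to 26.8 FPKM with DMSO and 52.4 to 57.7 FPKM with paroxetine, nearly all of it CD68, which is also a lysosomal gene, while PTPRC, the gene of the common leukocyte antigen, was at 0.335 FPKM or less. The fibroblast markers summed to 7.05 to 8.47 and 11.3 to 11.8 FPKM with COL1A2 listed at 0 throughout, the keratinocyte and epithelial markers to 4.13 to 6.06 and 1.02 to 1.03 FPKM with CDH1 and DSG3 listed at 0 throughout, and the endothelial markers to at most 0.348 FPKM. The part of such markers in the annexin results was not tested.

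Paroxetine was accompanied by lower ANXA1 and ANXA2, the most abundant annexin transcripts with DMSO, and by higher ANXA4. ANXA5, ANXA6, ANXA7 and ANXA11 did not pass the test. A gene entered the test if 2 or more of the 4 libraries had it at 1 FPKM or above. The test was limma on log2(FPKM + 1), and a gene was called at a Benjamini-Hochberg adjusted p under 0.05 over the 15511 genes tested. Of the 8 annexins 7 were tested, 1 was called higher and 2 lower. Of all genes tested 38.6% were called, 18.1% higher and 20.5% lower, so the share of annexins called was close to that of all genes. Both annexins called lower had a log2 change of -1 or less, a size that 4.41% of the genes tested reached with a call. In 6 of the 7 tested annexins the paroxetine libraries did not overlap the DMSO libraries, against 71.6% of all genes tested. The median log2 change was -0.16 over the 7 annexins and -0.0047 over all genes tested. Whether the libraries of a group are separate cultures is not stated, and the p-values reflect the spread between these libraries alone, which may be technical. The labels name more than 1 library kit and sequencing instrument without saying which served which library, so a difference of that kind between the groups cannot be told apart from the treatment. In a bulk measurement of this kind, fewer cells that carry a transcript and less of it per cell cannot be told apart.

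**Figure D1:**
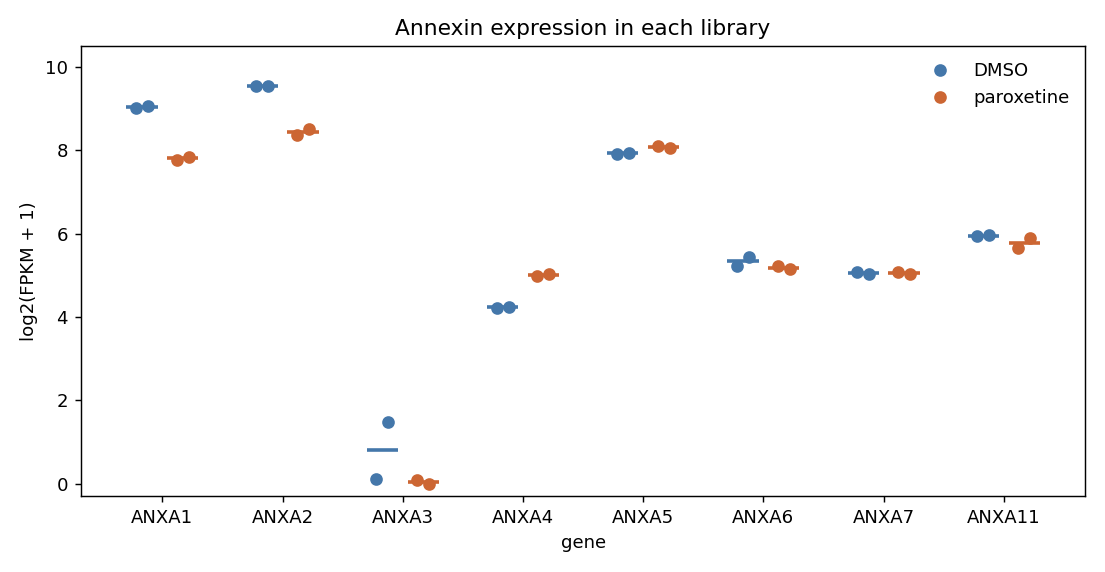
Level of each annexin gene on a log2(FPKM + 1) axis, with 1 point per library and a bar at the group mean, for 2 DMSO and 2 paroxetine libraries. ANXA1 and ANXA2 sit lower and ANXA4 higher in both paroxetine libraries, and ANXA3 lies near 0 in all but 1 library.

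ANXA1 encodes a protein induced by glucocorticoids that binds formyl peptide receptors and dampens inflammation. It stood at 512 and 535 FPKM with DMSO and at 217 and 227 FPKM with paroxetine (ENSG00000135046, chromosome 9, 73151757 to 73170393 in GENCODE release 29 on GRCh38). Both paroxetine libraries were below both DMSO libraries. The mean fell from 523 ± 16.0 to 222 ± 7.41 FPKM (SD, n = 2), a log2 change of -1.23 ± 0.06 (SE; limma adjusted p = 0.000284), and 371 of the 15511 genes tested had a lower log2 change.

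ANXA2 encodes the annexin that joins S100A10 in a complex under the plasma membrane, where it binds actin and, at the surface, plasminogen. It stood at 743 and 737 FPKM with DMSO and at 331 and 365 FPKM with paroxetine (ENSG00000182718, chromosome 15, 60347134 to 60402883). The groups were again apart, with both paroxetine libraries the lower ones. The mean fell from 739.9 ± 3.81 to 348 ± 24.2 FPKM (SD, n = 2), a log2 change of -1.09 ± 0.07 (SE; limma adjusted p = 0.000499). ANXA2 thus remained the most abundant of the 8 genes in both groups.

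ANXA4, whose protein associates with membranes of secretory cells and epithelia, moved the other way. Its values were 17.5 and 18.0 FPKM with DMSO and 30.5 and 31.8 FPKM with paroxetine (ENSG00000196975, chromosome 2, 69644425 to 69827100), so that both paroxetine libraries were above both DMSO libraries. The mean rose from 17.7 ± 0.308 to 31.1 ± 0.903 FPKM (SD, n = 2), a log2 change of 0.78 ± 0.07 (SE; limma adjusted p = 0.00134). AAK1, a kinase gene of endocytosis on the opposite strand, lies across part of ANXA4 but shares 0 exon bases with it. AAK1 was at 10.4 and 9.97 FPKM with DMSO and at 14.9 and 14.5 FPKM with paroxetine, and its part in the ANXA4 values was not tested.

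ANXA5 encodes the phosphatidylserine-binding annexin used as a stain for dying cells. It stood at 239 and 244 FPKM with DMSO and at 275 and 265 FPKM with paroxetine (ENSG00000164111, chromosome 4, 121667955 to 121697113). The paroxetine libraries were both higher, by a small margin, with a log2 change of 0.16 (95% interval 0.03 to 0.29) and a limma adjusted p = 0.0581 that missed the threshold. With median-of-ratios scaling of the libraries the limma adjusted p was 0.0485 and with a minimum of 5 FPKM it was 0.0460, within a range of 0.0460 to 0.214 over the alternatives.

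ANXA11, whose protein binds PDCD6 and S100A6 and links RNA granules to lysosomes, was at 60.1 and 61.3 FPKM with DMSO and at 49.5 and 58.2 FPKM with paroxetine (ENSG00000122359, chromosome 10, 80150889 to 80205572). The first paroxetine library was the low one, and the log2 change of -0.18 had a 95% interval of -0.40 to 0.05 (limma adjusted p = 0.177). ANXA6, which encodes the largest annexin, with a duplicated core, was at 36.6 and 42.7 FPKM with DMSO and at 36.4 and 34.3 FPKM with paroxetine (ENSG00000197043, chromosome 5, 151100712 to 151157882). The lower DMSO library nearly met the higher paroxetine library, and the interval of the log2 change ran from -0.39 to 0.08 (limma adjusted p = 0.240). ANXA7, a gene of granule and vesicle fusion also called synexin, was at 32.9 and 31.7 FPKM with DMSO and at 33.0 and 31.9 FPKM with paroxetine (ENSG00000138279, chromosome 10, 73375101 to 73414076). These groups overlapped, and the interval of the log2 change, -0.16 to 0.17, includes only changes far smaller than those of ANXA1 and ANXA2 (limma adjusted p = 0.959). An antisense gene that shares 105 exon bases with ANXA7 was listed at 0 in 3 libraries and at 0.702 FPKM in the first paroxetine library.

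ANXA3, an annexin found in neutrophils and several epithelia, was not tested because it reached 1 FPKM in a single library. It was at 0.0842 and 1.80 FPKM with DMSO and at 0.0639 and 0 FPKM with paroxetine (ENSG00000138772, chromosome 4, 78551519 to 78610451). The DMSO libraries differed more from each other than the lower of them did from the paroxetine libraries.

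**Figure D2:**
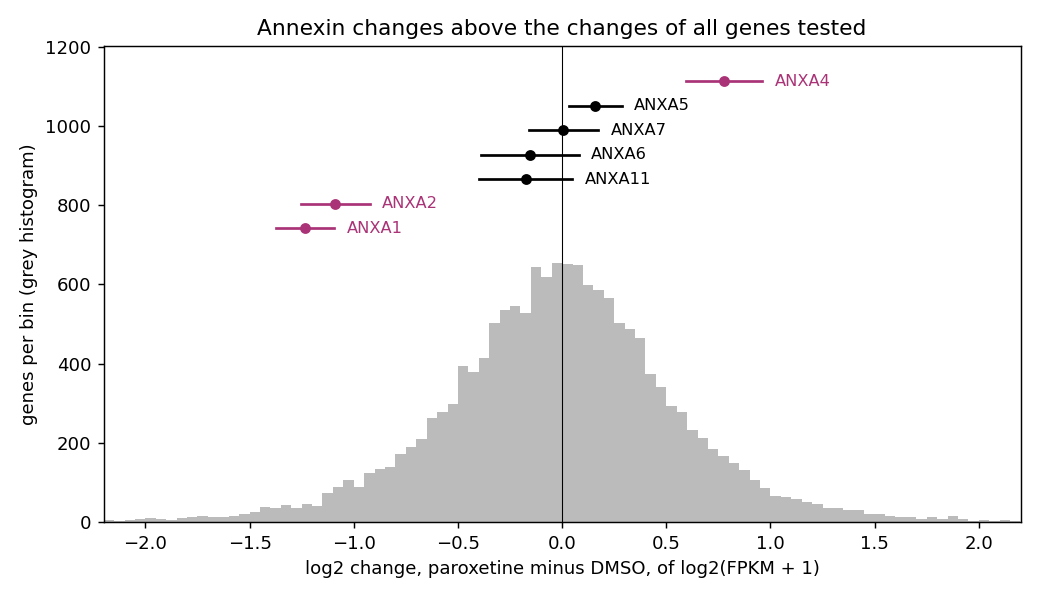
Log2 change of each tested annexin (paroxetine minus DMSO, point) with its 95% interval from limma (line), drawn at arbitrary heights above a histogram of the log2 changes of all genes tested. Purple marks called genes, and genes beyond the axis limits are not drawn. ANXA1 and ANXA2 lie in the lower tail at -1.23 and -1.09, ANXA4 lies at 0.78 and the other 4 lie near 0.

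The order of the levels changed at 1 place near the top, and ANXA7 and ANXA4 drew together lower down. With DMSO the order from high to low was ANXA2, ANXA1, ANXA5, ANXA11, ANXA6, ANXA7, ANXA4 and ANXA3, and the 2 libraries of each gene did not overlap those of the next. With paroxetine ANXA5 (269.6 FPKM) stood above ANXA1 (222 FPKM) in both libraries, and the rest of the order was kept. ANXA7 and ANXA4, at 32.4 and 31.1 FPKM with paroxetine, did not overlap but differed by about as much as the libraries of each gene. The ratio of ANXA1 to ANXA5 was 2.14 and 2.19 with DMSO and 0.790 and 0.860 with paroxetine, and that of ANXA2 to ANXA5 was 3.11 and 3.02 with DMSO and 1.20 and 1.38 with paroxetine. The ratio of ANXA2 to ANXA1 moved much less, from 1.45 and 1.38 to 1.52 and 1.60.

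The 8 genes together summed to 1641 and 1671 FPKM with DMSO and to 972 and 1013 FPKM with paroxetine. Both paroxetine sums were lower, by 664 FPKM on average (exact permutation test over libraries, two-sided, p = 0.333, the smallest that 2 libraries against 2 allow). ANXA1 and ANXA2 held 76.5% and 76.1% of the sum with DMSO and 56.4% and 58.5% with paroxetine. The share of ANXA5 went from 14.6% in both DMSO libraries to 28.3% and 26.1%, and that of ANXA4 from 1.07% in both to 3.14% in both. The other 6 genes summed to 386 and 399 FPKM with DMSO and to 424 and 421 FPKM with paroxetine, so the lower total came from ANXA1 and ANXA2.

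**Figure D3:**
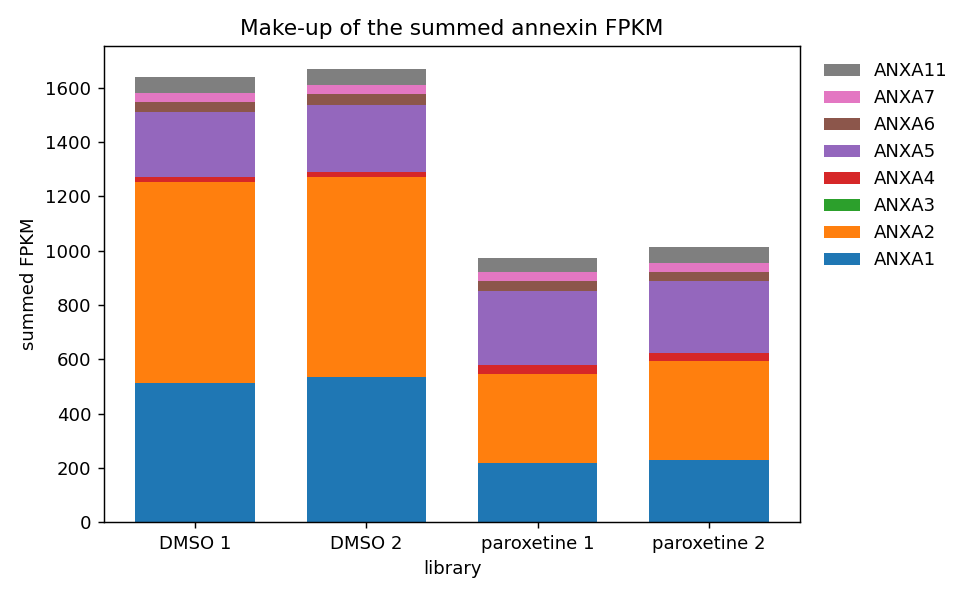
Summed FPKM of the 8 annexin genes in each library, stacked by gene. The bars of the paroxetine libraries reach 972 and 1013 FPKM against 1641 and 1671 FPKM in the DMSO libraries, and the ANXA1 and ANXA2 segments account for the difference.

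ANXA2 has processed copies in the genome, and reads from it can match them. Of these ANXA2P2 was listed at 54.2 and 56.7 FPKM with DMSO and at 26.3 and 33.3 FPKM with paroxetine (ENSG00000231991, chromosome 9, 33624274 to 33625293), a log2 change of -0.88 ± 0.12 (SE; limma adjusted p = 0.00409). In GENCODE release 29 its 1020 bases align to an ANXA2 transcript without a gap and with 98.43% identity (16 mismatches), and 31.2% of its windows of 100 bases occur letter for letter in an ANXA2 transcript. The stretch of 60 coding bases in which the copies differ most, by 5 bases, is shown to mark where reads could be told apart, in capitals. It runs over coding bases 161 to 220 of ANXA2, counted from the start codon (chromosome 15, minus strand), and over chr9:33624434-33624493 (GRCh38, plus strand) in ANXA2P2.
ANXA2: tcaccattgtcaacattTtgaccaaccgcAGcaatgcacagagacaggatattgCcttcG
ANXA2P2: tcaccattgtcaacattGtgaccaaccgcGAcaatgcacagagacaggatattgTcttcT
How the authors' counting divided such reads is not stated, so the ANXA2P2 value is uncertain. It was 7.30% and 7.69% of the ANXA2 value with DMSO and 7.96% and 9.13% with paroxetine. ANXA2 and ANXA2P2 taken as 1 sum were at 797 and 794 FPKM with DMSO and at 357 and 398 FPKM with paroxetine, so that both paroxetine libraries were lower for the sum as well. ANXA2P1 and ANXA2P3 were below the filter.

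Of the 9 other genes with annexin names looked up, processed copies of ANXA2 and ANXA2R included, 3 passed the filter, ANXA2P2, ANXA2R and ANXA9. ANXA9 was at 1.47 and 1.54 FPKM with DMSO and at 3.03 and 2.60 FPKM with paroxetine and was called higher (limma adjusted p = 0.0471), a call lost in 7 of the 9 alternatives that tested it, leaving out any single library included (limma adjusted p = 0.0196 to 0.169 over them). ANXA2R, named as a receptor of ANXA2, was at 1.88 and 3.47 FPKM and at 3.92 and 3.82 FPKM (limma adjusted p = 0.215). ANXA8, ANXA8L1, ANXA10 and ANXA13 stayed under 1 FPKM in every library.

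The promoters of the called annexins and of S100A10 are shown because ANXA1, ANXA2 and S100A10 fell together while ANXA4 rose. Each runs from 250 bases before to 50 bases after a RefSeq start on GRCh38.p14. All 8 annexins had at least 1 such entry, 12 in all, and ANXA4 has 2 starts, which gene values do not separate. Capitals mark matches, on either strand, to 5 motifs. They are the AP-1 element TGANTCA, in which N is any base, the TATA box with the letters TATAAA, the GC box with the letters GGGCGG, the box named CCAAT after its letters, and the palindromic E-box with the letters CACGTG. Neighbouring GC boxes may overlap.
ANXA1, chr9:73151615-73151914, plus strand: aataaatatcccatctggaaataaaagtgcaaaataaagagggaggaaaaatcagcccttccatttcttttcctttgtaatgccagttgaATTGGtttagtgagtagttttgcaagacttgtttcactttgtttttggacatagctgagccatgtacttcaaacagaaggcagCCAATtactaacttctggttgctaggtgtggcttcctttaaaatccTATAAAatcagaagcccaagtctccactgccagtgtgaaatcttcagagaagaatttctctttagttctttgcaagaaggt
ANXA2, chr15:60397937-60398236, minus strand: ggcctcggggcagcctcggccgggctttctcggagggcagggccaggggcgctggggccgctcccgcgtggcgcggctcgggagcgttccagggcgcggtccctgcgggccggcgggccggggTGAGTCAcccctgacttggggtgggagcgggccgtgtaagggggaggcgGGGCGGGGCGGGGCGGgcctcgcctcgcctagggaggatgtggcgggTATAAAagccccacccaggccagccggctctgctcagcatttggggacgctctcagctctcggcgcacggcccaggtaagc
S100A10, chr1:151993810-151994109, minus strand: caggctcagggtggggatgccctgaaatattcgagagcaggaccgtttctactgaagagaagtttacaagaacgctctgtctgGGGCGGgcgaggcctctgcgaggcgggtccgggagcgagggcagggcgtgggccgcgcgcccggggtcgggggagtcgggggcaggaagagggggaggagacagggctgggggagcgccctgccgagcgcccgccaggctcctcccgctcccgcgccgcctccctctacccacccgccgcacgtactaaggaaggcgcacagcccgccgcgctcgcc
ANXA4 first start, chr2:69643558-69643857, plus strand: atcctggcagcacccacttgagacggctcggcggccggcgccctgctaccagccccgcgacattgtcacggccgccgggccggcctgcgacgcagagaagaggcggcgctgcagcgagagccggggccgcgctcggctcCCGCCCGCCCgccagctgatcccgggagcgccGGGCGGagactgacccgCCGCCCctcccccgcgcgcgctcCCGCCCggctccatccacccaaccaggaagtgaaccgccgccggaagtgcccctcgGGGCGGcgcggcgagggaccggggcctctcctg
ANXA4 second start, chr2:69741884-69742183, plus strand: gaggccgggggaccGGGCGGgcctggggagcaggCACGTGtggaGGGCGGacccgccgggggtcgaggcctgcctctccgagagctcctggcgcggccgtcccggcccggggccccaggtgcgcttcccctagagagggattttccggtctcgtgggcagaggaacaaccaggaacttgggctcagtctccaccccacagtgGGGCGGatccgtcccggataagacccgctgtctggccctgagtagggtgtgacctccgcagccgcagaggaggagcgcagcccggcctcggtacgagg
The ANXA1 and ANXA2 windows each hold 1 TATA box, whose first base is 31 bases before the start. Of the 35116 promoters searched 11.5% hold at least 1 anywhere in the window, on either strand. The share with a TATA box at that position was not counted. ANXA1 also holds 2 CCAAT boxes (34.6% of promoters hold any) and no GC box, and ANXA2 holds 3 GC boxes (44.95%) and 1 AP-1 element (7.71%). The ANXA4 windows hold 6 and 3 GC boxes, the second also 1 E-box (7.26%), and the S100A10 window holds 1 GC box. Annexins that were not called also hold such matches. The second ANXA11 window holds 4 GC boxes, the ANXA7 window 3 and the ANXA5 window 1. The second ANXA6 window holds 1 GC box and 1 E-box. The remaining annexin windows not shown hold neither a GC box nor an E-box. Among them 1 ANXA11 window holds 1 TATA box, whose first base is 61 bases before the start. Another ANXA11 window, the ANXA7 window and 1 ANXA6 window each hold 1 CCAAT box. The ANXA1 window has 37.7% G and C, below the median promoter at 58.7%, while those of ANXA2, S100A10 and ANXA4 have 71.7% to 78.0%. A match of letters is not a binding site, and of the 5 motifs searched the ANXA1 and ANXA2 windows share only the TATA box. That box is not particular to the genes that fell. ANXA11 was not called and has it in 1 window, while S100A10 fell and its window has none.

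Of 8 genes of S100 and penta-EF-hand partners 3 fell, 0 rose and 5 did not pass, with a median log2 change of -0.06. That share of calls is close to the 38.6% of all genes tested. S100A10 stood at 779 and 800.0 FPKM with DMSO and at 514 and 550.1 FPKM with paroxetine, a log2 change of -0.57 ± 0.06 (SE; limma adjusted p = 0.00189). S100A11, which binds the ANXA1 head, stood at 591 and 553 FPKM and at 439 and 442.5 FPKM, a log2 change of -0.37 ± 0.06 (SE; limma adjusted p = 0.00615). Their paroxetine libraries lay below their DMSO libraries, by less than those of the annexins they bind. The ratio of S100A10 to ANXA2 was 1.05 and 1.09 with DMSO and 1.55 and 1.51 with paroxetine, and that of S100A11 to ANXA1 was 1.16 and 1.03 with DMSO and 2.02 and 1.95 with paroxetine. For both ratios the paroxetine libraries were the higher ones.

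**Figure D4:**
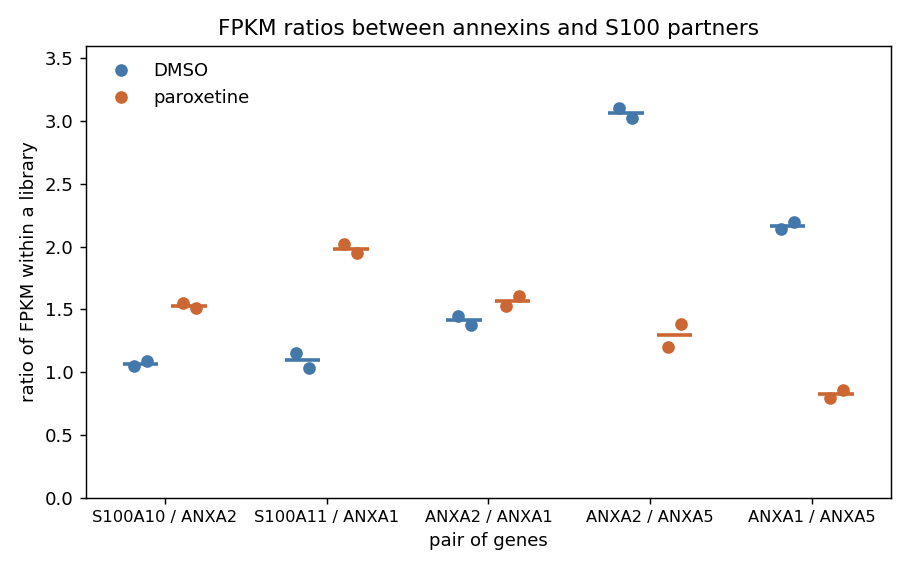
Ratio of the FPKM values of named gene pairs within each library, with 1 point per library and a bar at the group mean, for 2 DMSO and 2 paroxetine libraries. The S100 to annexin ratios are higher and the ratios of ANXA2 and ANXA1 to ANXA5 lower in both paroxetine libraries.

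PEF1, a calcium-binding partner of PDCD6, was the third gene of that list to fall, from 42.4 and 46.3 FPKM to 28.7 and 29.9 FPKM. PDCD6, which encodes ALG-2 and binds ANXA7 and ANXA11, was at 94.4 and 100.1 FPKM with DMSO and at 100.6 and 95.2 FPKM with paroxetine. SRI, which encodes sorcin, a partner of ANXA7, was at 80.7 and 85.6 FPKM and at 83.0 and 77.1 FPKM. S100A6, a partner of ANXA11, was the most abundant of the list, at 3041 and 3049 FPKM and at 2818 and 3036 FPKM. The groups of PDCD6 and SRI overlapped, and none of these 3 passed the test in limma (adjusted p = 0.543 to 0.918; unadjusted p = 0.433 to 0.881).

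A list named for ligand and surface partners of annexins A1 and A2 held 12 genes. The list also takes in a scaffold gene, AHNAK, and the membrane repair genes MYOF and DYSF. Of the 12 genes 6 were tested, 3 fell and 1 rose, with a median log2 change of -0.46. Of all genes tested 20.5% were called lower and 18.1% higher. With 6 genes tested nothing is read from the share of the list that was called. MYOF encodes myoferlin, a C2-domain protein of membrane repair, and it fell from 94.6 and 92.0 FPKM to 48.6 and 50.3 FPKM, a log2 change of -0.90 ± 0.06 (SE; limma adjusted p = 0.000535). PLAT, which encodes tissue plasminogen activator, fell from 64.6 and 66.9 FPKM to 20.5 and 20.2 FPKM (log2 change -1.64 ± 0.06, SE; limma adjusted p = 0.000217). PLAUR, the urokinase receptor gene, fell from 52.5 and 58.9 FPKM to 31.6 and 35.5 FPKM.
In each of these 3 genes both paroxetine libraries were below both DMSO libraries. CD44, a hyaluronan receptor gene, rose from 297 and 292 FPKM to 362 and 349 FPKM. AHNAK, the gene of a giant scaffold that binds the complex of ANXA2 and S100A10, was at 58.0 and 55.6 FPKM and at 65.0 and 64.5 FPKM (limma adjusted p = 0.0504). The formyl peptide receptor genes FPR1 and FPR3 and the plasminogen gene PLG were listed at 0 in all 4 libraries, and FPR2 at 0 in all but 1, at 0.0977 FPKM. PLAU, which encodes urokinase, was between 0.489 and 1.17 FPKM, and DYSF, which encodes the repair protein dysferlin, between 0.0460 and 0.598 FPKM. So transcripts of the receptors through which extracellular annexin A1 is known to signal were at or near 0 in these cells.

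**Figure D5:**
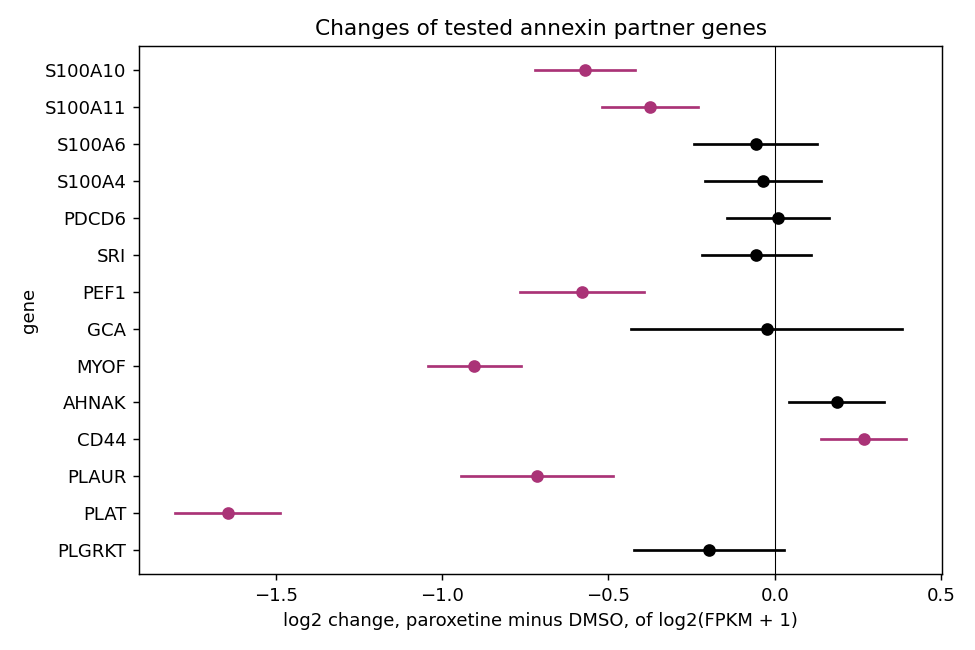
Log2 change (paroxetine minus DMSO, point) with its 95% interval from limma (line) for the tested genes of the S100, penta-EF-hand and surface partner lists, with called genes in purple. S100A10, S100A11, PEF1, MYOF, PLAUR and PLAT lie below 0, CD44 and the uncalled AHNAK lie above 0 and the intervals of S100A6, S100A4, PDCD6, SRI, GCA and PLGRKT span 0.

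Of 23 genes of ESCRT and calpain repair 21 were tested, 3 rose and 4 fell (median log2 change 0.04), a share of calls slightly under the 38.6% of all genes tested. CHMP4A, of the ESCRT-III filament, fell from 22.0 and 20.2 FPKM to 11.9 and 14.8 FPKM. CHMP6, also of ESCRT-III, fell from 12.5 and 13.7 FPKM to 9.80 and 9.24 FPKM. CAPNS1, the shared small subunit of calpains, fell from 290.1 and 273 FPKM to 190.3 and 213 FPKM, while CAPN1, a catalytic subunit, rose from 35.5 and 36.4 FPKM to 47.6 and 46.6 FPKM. Without DMSO replicate 1 the calls in this list dropped from 7 to 1, and without any other single library to between 2 and 4.

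Of 23 genes of C2-domain and related membrane-binding proteins 18 were tested, 2 rose and 2 fell (median log2 change 0.10), a smaller share than the 38.6% of all genes tested. SYT1, a calcium sensor of vesicle fusion, rose from 2.92 and 3.57 FPKM to 9.11 and 9.71 FPKM (log2 change 1.30 ± 0.14, SE; limma adjusted p = 0.00226). SYT11, another synaptotagmin gene, rose from 16.6 and 16.0 FPKM to 24.9 and 23.5 FPKM. RASA1, a Ras GTPase-activating protein gene, fell from 34.6 and 33.9 FPKM to 26.5 and 27.2 FPKM, and SYTL2, a Rab27 effector gene, from 12.0 and 12.4 FPKM to 7.18 and 9.38 FPKM. PLA2G4A, the cytosolic phospholipase A2 that annexins can inhibit, was at 3.71 and 3.51 FPKM and at 4.79 and 4.89 FPKM (limma adjusted p = 0.109). Calls in this list numbered 2 without DMSO replicate 1, without DMSO replicate 2 or without paroxetine replicate 1.

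A list named for phosphatidylserine scramblases and flippases held 14 genes. Of these 11 were tested, 1 rose and 2 fell (median log2 change 0.0066). That is also a smaller share than the 38.6% of all genes tested. Whether each listed gene acts on phosphatidylserine at the cell surface was not tested. PLSCR1 fell from 39.0 and 39.9 FPKM to 31.0 and 32.0 FPKM, and PLSCR3 from 27.9 and 25.3 FPKM to 19.3 and 18.6 FPKM. ATP8B2, a flippase gene, rose from 31.2 and 34.4 FPKM to 40.8 and 43.7 FPKM. With 1 library left out the number of calls in this list was 0 without DMSO replicate 1 and without paroxetine replicate 2, 1 without paroxetine replicate 1 and 2 without DMSO replicate 2.

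The genes whose pattern was most like that of ANXA1 and of ANXA4 were found by the smallest Euclidean distance between log2(FPKM + 1) values over the 4 libraries, each gene centred on its own mean. Those nearest to ANXA1 were CHAC2, which acts on glutathione, at a distance of 0.0266, FEN1, the flap endonuclease of DNA replication, at 0.0288, and NUSAP1, a spindle gene, at 0.0312. FEN1 was at 94.2 and 100.6 FPKM with DMSO and at 39.5 and 41.3 FPKM with paroxetine. ANXA2 ranked 103 by this distance to ANXA1, at 0.161. Those nearest to ANXA4 were MAP1LC3B, which encodes the autophagosome protein LC3B, at 0.0143, SEC61A1, of the endoplasmic reticulum translocon, at 0.0317, and AKAP8L at 0.0371. MAP1LC3B was at 31.4 and 32.6 FPKM with DMSO and at 54.7 and 56.5 FPKM with paroxetine. With 4 libraries in 2 groups such a distance mostly reflects the size of the change between the groups.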

How the data were processed

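The deposited table holds FPKM values computed by the authors. Per the submitters' processing notes, CASAVA 1.4, HISAT2 2.1.0 and Cufflinks 2.2.1 were used with the human genome hg38. The sources used here do not state the annotation release, the strand setting, the scaling between libraries or what was done with reads matching more than 1 gene. The 4 FPKM columns were matched to the samples by title, and 12 other per-sample columns were not used. Gene locations are from GENCODE release 29 (GRCh38), in which 58520 genes of the table were found, and promoters from RefSeq (GRCh38.p14).

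Genes that reached 1 FPKM in 2 or more libraries were tested with limma 3.58.1 (R 4.3.3) on log2(FPKM + 1), 2 paroxetine against 2 DMSO libraries, with the mean-variance trend, two-sided, with Benjamini-Hochberg adjustment over all genes tested (residual degrees of freedom 2, prior 3.32). A fold change on this scale understates the change of low genes. The procedure was run on simulated data with independent noise in each library, which may not hold here. Nothing is read from that run. Alternatives were median-of-ratios scaling, log2(FPKM + 0.1), no mean-variance trend, a minimum of 5 FPKM, no filter, a replicate block and leaving out each library. Protein sequences were not used here. Named genes were the members, up to 4 called genes per list (the largest changes where more were called), 15 partner genes fixed by name and, for the called annexin with the largest rise and with the largest fall, the 3 genes nearest in pattern. Markers of cell types, AAK1 and genes named only as below the filter were named outside this rule, after their values were seen. The annexins and the gene lists were chosen with earlier results of these data known. No label ties replicate numbers to a shared culture or day, and the deviations from the group mean of libraries with equal numbers had r = -0.0425 over genes, so numbers were not used as pairs. Computation also used Python 3.11.15, pandas 2.3.3, scipy 1.17.1 and matplotlib 3.10.9.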

Additional observations from a re-analysis of the deposited data

How the results depend on the processing

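ANXA1, ANXA2 and ANXA4 kept their direction and their call in all 10 alternatives, with log2 changes of -1.27 to -1.20, -1.16 to -1.02 and 0.75 to 0.81. The number of annexins called higher was 2, with ANXA5 added, under median-of-ratios scaling and with a minimum of 5 FPKM, and 1 in every fit that left out 1 library; the number called lower was 2 throughout. The replicate number as a replicate block gave 1 higher and 2 lower and changed no call among the annexins. It left 1 call, that of the processed copy ANXA2P2, in the list of other genes with annexin names. That list also had 1 call with no filter, with a minimum of 5 FPKM and with log2(FPKM + 0.1), and 1 without any single library. Calls in the ESCRT and calpain list numbered 4 with no filter and 4 without the mean-variance trend, and 1 to 4 with 1 library left out. With 1 library left out, calls ranged from 2 to 3 in the S100 and C2-domain lists, 3 to 4 in the surface partner list and 0 to 2 in the scramblase and flippase list. Over all genes these fits called 1442 to 1539 higher and 1773 to 2221 lower, 3312 to 3693 in all, against 5995; the lone library of a group is then assumed to vary like the other group. The summed annexin difference ran from -684 to -643 FPKM. The alternatives for the partner lists were chosen after seeing the data. Read numbers are unknown, so the precision of low values such as ANXA3 cannot be stated.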
